A study of Mus musculus with 13 samples.

Results

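Fibro-adipogenic progenitors (FAPs) of skeletal muscle were compared with FAPs of lung across every gene of the deposited count table, using 4 muscle FAP libraries (numbered 2 to 5 in the labels) and 5 lung FAP libraries (numbered 1 to 5), 9 of the 13 libraries of the series. The remaining 4 libraries, from mouse embryonic fibroblasts, entered the fit but not the comparison. They had a part in the choice of genes tested, the scaling of libraries and the estimate of the spread of counts. All libraries were made from total RNA of Mus musculus. The labels name a tissue and a cell type for each library and nothing further: none of the sources used here gives strain, age, sex, treatment, the sort that defined a FAP or the number of animals behind a library. The series' design text speaks of parabiosis without tying a library to it. Nothing in the labels says that libraries of a group came from separate animals, so each p-value measures the spread between these libraries, which may be technical. The stated purpose of sequencing both tissues was to find transcripts that drive satellite cell differentiation.

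FAPs are stromal cells that carry the PDGF receptor Pdgfra, build extracellular matrix, and can turn into fibroblasts or adipocytes. In muscle they lie between the fibres and send signals to satellite cells, the stem cells of the fibres. Lung holds several kinds of Pdgfra-positive stromal cells, which support alveoli, airways and vessels. Stromal cells of different organs keep different sets of patterning factors from development, and gene families are therefore described here by how many of their members differed between the tissues.

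Levels are given as CPM, read counts brought to a common library total with the TMM factors of edgeR. They are not divided by gene length, so a level is compared between tissues and never between genes. Where a gene is given by library, muscle values are in the order of libraries 2, 3, 4 and 5 and lung values in the order of libraries 1 to 5. The libraries held 41327292 to 44699463 counts in muscle and 28636183 to 35464622 in lung. The 100 most abundant genes took 37.1% to 37.9% of the counts in muscle and 25.1% to 31.5% in lung, and the TMM factors were 0.777 to 0.808 in muscle and 0.985 to 1.16 in lung.

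All 10 FAP markers checked were expressed in both tissues. The receptor gene Pdgfra was at 1487, 1381, 1421 and 1270.0 CPM in the muscle libraries and 799.5, 846, 779.6, 776 and 800.0 CPM in the lung libraries (log2 fold change 0.80 ± 0.05 (SE), edgeR adjusted p = 4.98e-05). Every muscle library lay above every lung library, and the difference was smaller than 2-fold. The stem and progenitor surface marker Cd34 was at 1708, 1554, 1614 and 1625 CPM in the muscle libraries and 1782, 1112, 1561, 2134 and 1616 CPM in the lung libraries (log2 fold change −0.01 ± 0.16 (SE), edgeR adjusted p = 0.952). Ly6a, which encodes the Sca-1 antigen, was at 719.6, 680.0, 689 and 1013 CPM in the muscle libraries and 938, 633, 751, 1156 and 793 CPM in the lung libraries (log2 fold change −0.14 ± 0.20 (SE), edgeR adjusted p = 0.601). The groups overlapped for both, and neither was called; with library size alone both were called lower, at −0.41 (Cd34, adjusted p = 0.0170) and −0.54 (Ly6a, adjusted p = 0.0286) by edgeR. The surface glycoprotein gene Thy1 was higher in muscle, with 382 ± 73 CPM (SD, n = 4) in muscle and 73.3 ± 27.8 CPM (SD, n = 5) in lung (log2 fold change 2.38 ± 0.31 (SE), edgeR adjusted p = 4.57e-06), and the adventitial fibroblast marker Pi16 was lower, with 1182 ± 163 CPM (SD, n = 4) in muscle and 3228 ± 1047 CPM (SD, n = 5) in lung (log2 fold change −1.45 ± 0.28 (SE), edgeR adjusted p = 0.00119).

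The levels of several other cell types' markers also moved with tissue. In bulk libraries, fewer cells of a type and less RNA per cell cannot be told apart. Blood cell markers summed to 6.48 to 8.93 CPM in muscle and 51.3 to 714 CPM in lung, with 4 of 19 members at 0 counts and 17 under a mean of 1 CPM in muscle. Lung epithelium markers summed to 4.75 to 7.87 CPM in muscle and 112 to 9288 CPM in lung, the top value being lung library 3 and the next 231 CPM. Mesothelial markers summed to 1.21 to 30.1 against 478 to 1122 CPM. Pericyte and smooth muscle markers summed to 132 to 143 CPM in muscle and 370.0 to 2208 CPM in lung, highest in lung library 2, which also had the highest endothelial sum (1331 CPM, against 423 to 731 CPM in the other lung libraries). Tenocyte markers went the other way, 1365 to 2311 CPM in muscle against 101 to 189 CPM in lung. Endothelial markers summed to 523.5 to 668 CPM in muscle, within the lung range. Schwann cell markers summed to 475 to 557 CPM in muscle and 812 to 1199 CPM in lung. FAP markers were lowest in lung libraries 2 and 4 (16746 and 19130.4 CPM). Counts of genes that were higher in lung are therefore also given without lung libraries 2 and 3 for the families concerned.

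**Figure D1:**
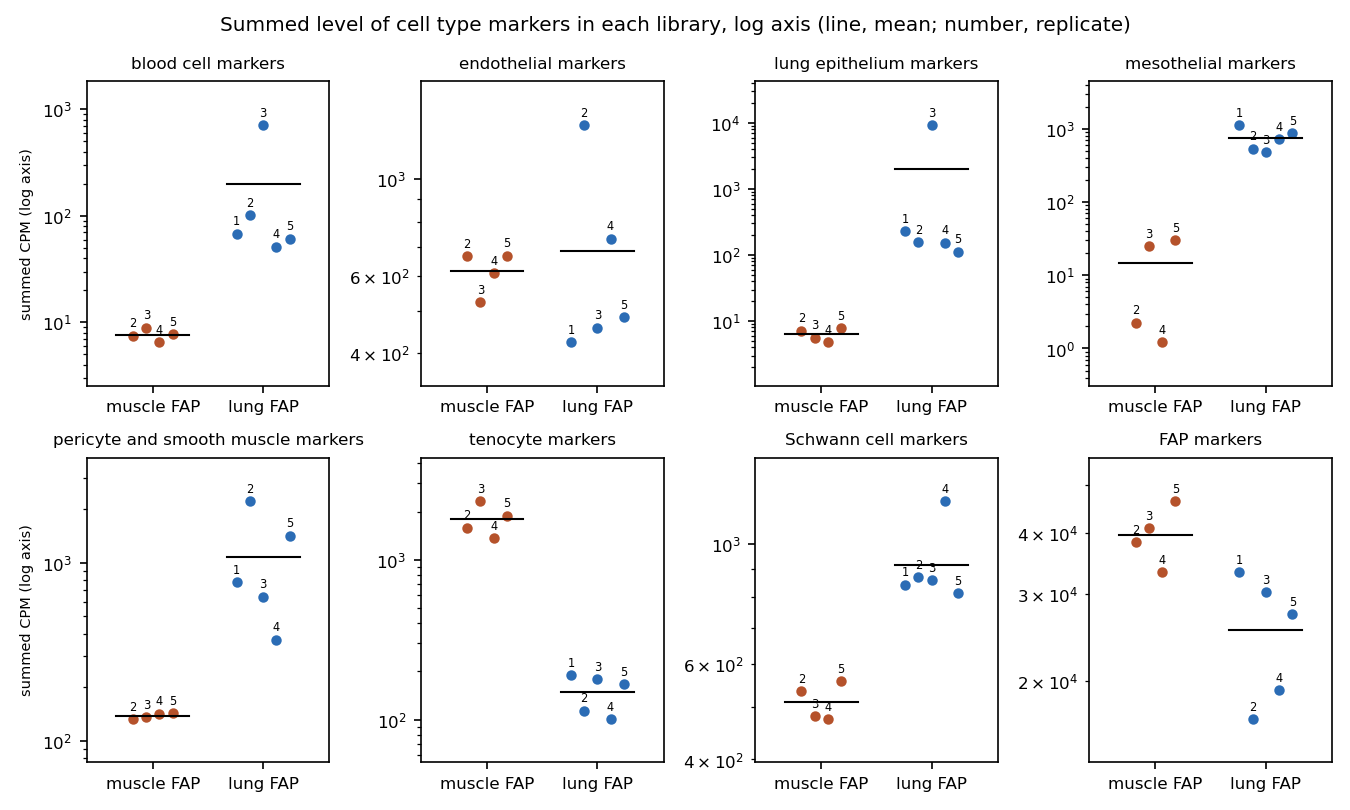
Summed CPM of 8 lists of cell type markers in each library, on a log axis; points are libraries with their replicate number and lines are group means. Lung library 3 stands at 9288 CPM for lung epithelium markers and lung library 2 at 2208 CPM for pericyte and smooth muscle markers, while tenocyte markers lie between 1365 and 2311 CPM in muscle and under 189 CPM in lung.

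Muscle and lung FAPs differed at a large part of the genome. Of 15412 genes tested with edgeR's quasi-likelihood test, 7424 were called at a Benjamini-Hochberg adjusted p under 0.05 (48.2%). Of these, 3574 were higher in muscle FAPs (23.2%) and 3850 were lower (25.0%). A stricter call, which also asked for a 2-fold difference, left 1406 genes higher (9.12%) and 1890 lower (12.3%), 21.4% in all. Large differences were more often toward lung than toward muscle: 224 genes were at least 10-fold higher and 644 at least 10-fold lower. Among genes with at least 5 CPM in 4 libraries, the 2-fold counts were closer, 956 higher and 1056 lower. The libraries of both tissues did not overlap at all for 2925 genes that were higher in muscle (19%) and 2921 that were lower (19%). Members of each gene list are called by these same rules, and each count of members is to be read against these shares. The median log2 fold change over all genes was −0.04. With libraries scaled by their size alone it was −0.44, and the split of calls was then 1730 higher and 7455 lower, so every direction reported is relative to the TMM scaling.

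The 10 genes with the largest excess in muscle, among those above 20 CPM, were Hoxc10, Tbx15, Kera, Myoc, Prg4, Tnmd, Ret, Gfra1, Comp and Hspa1b. Hoxc10, a patterning factor of the posterior limb, had 4362 counts in muscle and 0 in lung, at least 1780-fold higher when lung is set to a floor of 3 counts over the group. The limb and trunk mesenchyme factor Tbx15 was at 199, 167, 236 and 118 CPM in the muscle libraries and 0, 0.799, 1.25, 0.366 and 1.23 CPM in the lung libraries (log2 fold change 7.94 ± 0.89 (SE), edgeR adjusted p = 6.61e-08). Myoc, which encodes the secreted protein myocilin, was at 1618, 2562, 2094 and 2291 CPM in the muscle libraries and 11.1, 3.71, 13.2, 12.6 and 22.2 CPM in the lung libraries (log2 fold change 7.41 ± 0.44 (SE), edgeR adjusted p = 5.62e-07). The 10 with the largest excess in lung were Scgb3a2, Bpifa1, Scgb1a1, Sftpc, Cldn5, Cbr2, Actc1, Scgb3a1, Scn3a and Slc38a5. Secretoglobins, surfactant protein C and Bpifa1 are products of lung epithelium, and all of these were highest in lung library 3, as were the lung epithelium markers; Sftpc was at 0, 0.0887, 0.662 and 0 CPM in the muscle libraries and 2.41, 1.54, 2181, 1.03 and 1.38 CPM in the lung libraries. Without that library the log2 fold change moved from −11.14 to −3.06 for Sftpc, from −11.26 to −6.77 for Scgb1a1 and from −11.57 to −10.04 for Bpifa1, and Sftpc also lost its call without muscle library 2, 3 or 5. The sodium channel gene Scn3a was not among those markers and was at 0.0583, 0, 0.0288 and 0 CPM in the muscle libraries and 16.6, 35.2, 12.6, 14.3 and 21.9 CPM in the lung libraries, 3 counts against 3395, a ratio of 925 with a 95% exact counting interval of 316 to 4485.

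**Figure D2:**
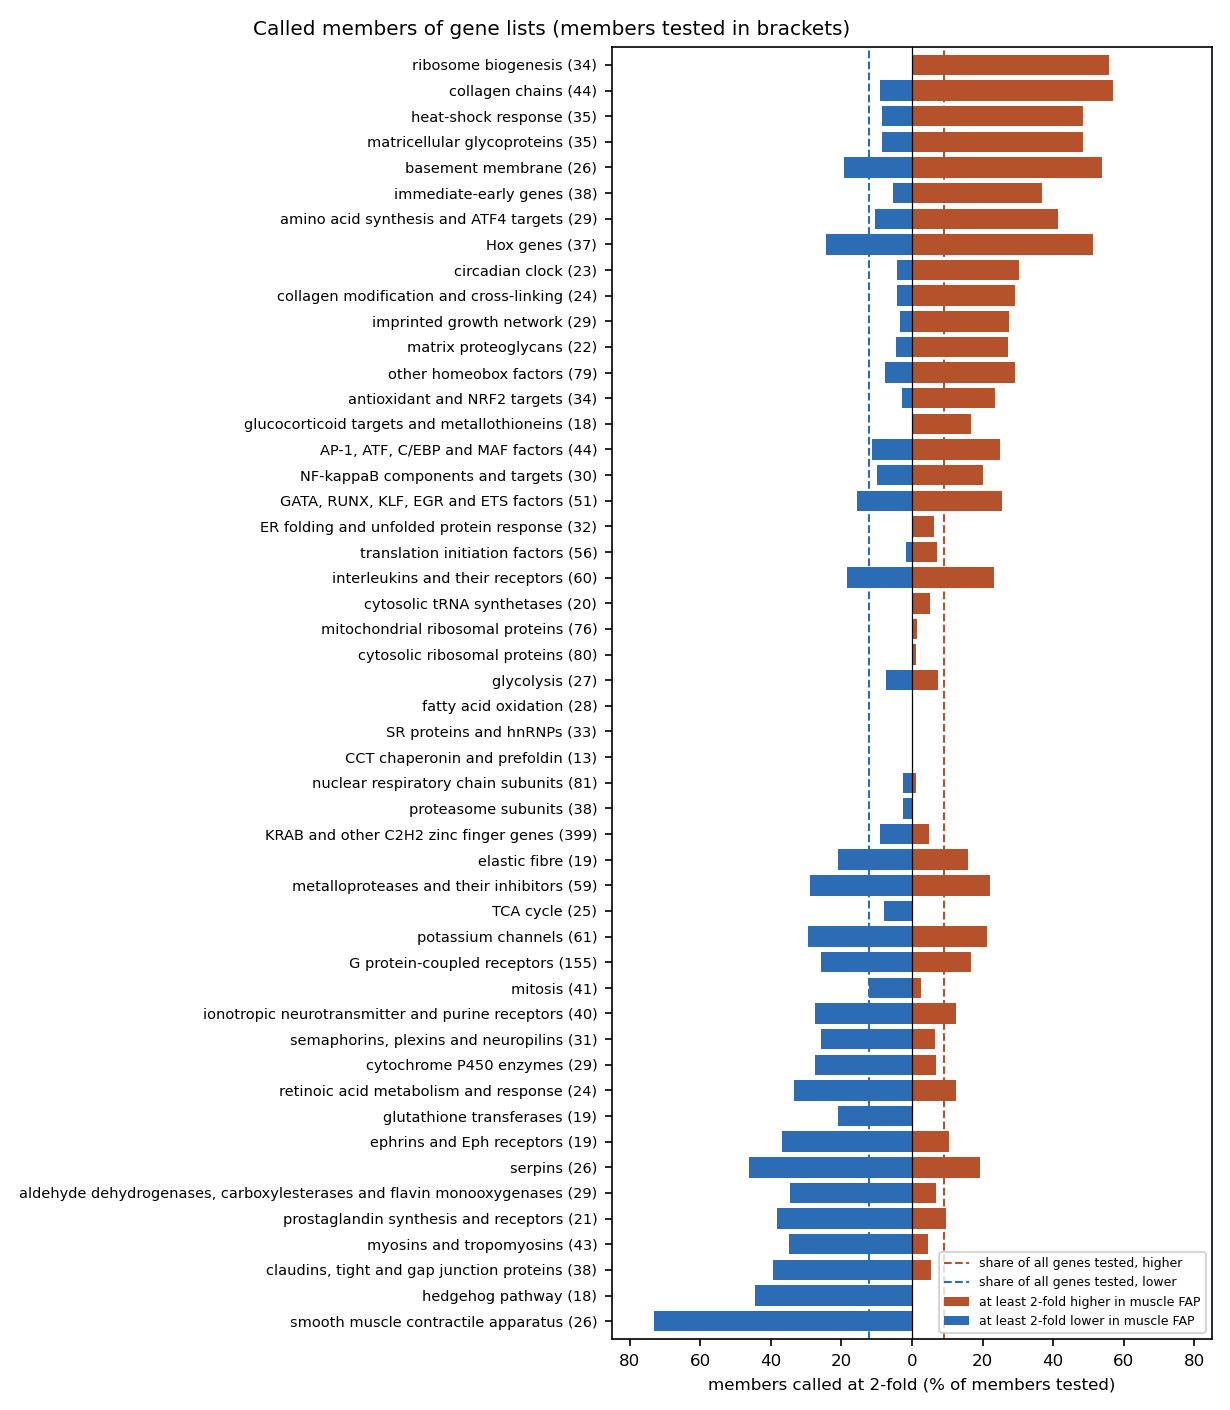
For 50 gene lists, the share of tested members called at least 2-fold higher (right, brown) or lower (left, blue) in muscle FAPs; dashed lines mark the shares of all genes tested, 9.12% and 12.3%. Ribosome biogenesis, collagen chains and heat-shock genes lie at the top, and the smooth muscle contractile apparatus at the bottom, while ribosomal proteins, respiratory chain subunits and proteasome subunits have almost no member on either side.

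Several families of general cell upkeep differed little: 1 of 80 cytosolic ribosomal protein genes, 1 higher and 2 lower of 81 nuclear respiratory chain subunit genes and 1 of 38 proteasome genes were called at 2-fold. Of 399 zinc finger genes of the KRAB and other C2H2 classes, 19 were called 2-fold higher and 36 lower.

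Collagen genes were mostly higher in muscle FAPs. Collagen chains, the rods and nets of the matrix, were called higher in muscle FAPs for 28 and lower for 6 of 44 genes, 25 and 4 of them by 2-fold, with a median log2 fold change of 1.5. Their summed level was 97122 to 124169 CPM in muscle and 25235 to 56116 CPM in lung, a ratio of means of 2.67. The groups did not overlap. Col1a2, a chain of the main fibrillar collagen, was 2-fold higher (log2 fold change 1.01 ± 0.28 (SE), edgeR adjusted p = 0.00259), whereas the minor fibrillar chain Col5a3 was at 3247, 2091, 2392 and 2914 CPM in the muscle libraries and 162, 68.6, 131, 64.5 and 141 CPM in the lung libraries (log2 fold change 4.55 ± 0.31 (SE), edgeR adjusted p = 7.86e-08). Col11a1, another minor fibrillar chain, was at 20.9, 24.1, 27.2 and 12.6 CPM in the muscle libraries and 0.688, 0.685, 0.0596, 0.532 and 0.752 CPM in the lung libraries (log2 fold change 5.28 ± 0.59 (SE), edgeR adjusted p = 1.45e-07). The collagens that were lower in muscle were few and included the transmembrane collagens Col13a1 (−4.39; 1.76 CPM in muscle and 37 CPM in lung) and Col23a1 (−2.11; 16.8 CPM in muscle and 72.4 CPM in lung), both as log2 fold changes.

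Basement membranes, the thin sheets that wrap muscle fibres, vessels and epithelia, are built from laminins, type IV collagen, nidogens and perlecan. Of 26 genes, 17 were called higher in muscle FAPs and 5 lower. The type IV collagen chain gene Col4a1 was at 10540.5, 6702, 8615 and 7895 CPM in the muscle libraries and 1253, 1141, 971, 448 and 1018 CPM in the lung libraries (log2 fold change 3.13 ± 0.30 (SE), edgeR adjusted p = 1.24e-07). Hspg2, which encodes perlecan, was at 5885, 4431, 5036 and 4505 CPM in the muscle libraries and 833, 316, 811, 149.5 and 790.0 CPM in the lung libraries (log2 fold change 3.10 ± 0.51 (SE), edgeR adjusted p = 5.06e-05). Lung library 4 was the lowest for both genes, and no lung library reached the muscle range. Smoc2, a matricellular protein of basement membranes, was at 5432, 4553, 5857 and 5322 CPM in the muscle libraries and 616, 339, 467, 386 and 529.6 CPM in the lung libraries (log2 fold change 3.50 ± 0.17 (SE), edgeR adjusted p = 1.91e-09). Lama2, the laminin chain of muscle basement membrane, was at 3509 ± 484 CPM (SD, n = 4) in muscle and 861 ± 184 CPM (SD, n = 5) in lung (log2 fold change 2.03 ± 0.18 (SE), edgeR adjusted p = 3.64e-07). Both were above every lung library in each muscle library. In the other direction, Npnt, which encodes nephronectin, an integrin ligand, was at 1.28, 1.57, 1.06 and 0.838 CPM in the muscle libraries and 222, 466, 149.8, 108 and 219 CPM in the lung libraries (log2 fold change −7.61 ± 0.40 (SE), edgeR adjusted p = 4.47e-08). Lama5 was at 4.25, 1.66, 1.18 and 1.59 CPM in the muscle libraries and 20.2, 45, 35.9, 14 and 22 CPM in the lung libraries (log2 fold change −3.66 ± 0.49 (SE), edgeR adjusted p = 1.81e-05). The family thus split by member: Col4a1, Hspg2, Smoc2 and Lama2 were higher in muscle FAPs and nephronectin and laminin alpha-5 were higher in lung. Npnt and Lama5 were both highest in lung library 2 and lowest in lung library 4, as were the pericyte and smooth muscle markers. Lama5 was next highest in lung library 3, the highest in lung epithelium markers. The part of other cell types in these values was not tested.

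Proteoglycans and matricellular glycoproteins, which organise fibres and bind growth factors, leaned to muscle. 10 of 22 proteoglycan genes were called higher and 1 lower, and 22 of 35 matricellular genes were called higher and 6 lower. Prg4, which encodes the joint lubricant lubricin, was at 1591, 1786, 1981 and 786 CPM in the muscle libraries and 10.2, 4.88, 16.7, 11.6 and 13.8 CPM in the lung libraries (log2 fold change 7.07 ± 0.43 (SE), edgeR adjusted p = 1.19e-08). Thbs4 and Comp, thrombospondins of tendon and muscle attachment, were at 1188 CPM in muscle and 29.9 CPM in lung and at 108 CPM in muscle and 1.68 CPM in lung, log2 fold changes of 5.31 and 6.0. All 8 tenocyte markers tested were called higher in muscle, and Comp, Thbs4, Fmod and Kera belong to those markers as well as to these matrix lists; the part of tendon cells in the result was not tested. The defining tendon factors Scx and Mkx were low in both tissues, at 0.73 CPM in muscle and 0.167 CPM in lung and at 2.93 CPM in muscle and 0.925 CPM in lung, and Scx was not called without muscle library 3 (adjusted p = 0.0501). Mgp, an inhibitor of calcification, was the main exception and was at 878, 1161, 1178 and 996 CPM in the muscle libraries and 5664, 7746, 5762, 6502 and 5184 CPM in the lung libraries (log2 fold change −2.55 ± 0.14 (SE), edgeR adjusted p = 3.1e-07). All 5 lung libraries lay far above the 4 muscle libraries.

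The enzymes that mature collagen were also mostly higher. Of 24 hydroxylases, chaperones, proteinases and lysyl oxidases, 18 were called higher and 1 lower, but only 7 by 2-fold; scaled by library size alone the split was 10 to 5. The lysyl hydroxylase gene Plod1 was at 319.6 CPM in muscle and 77.1 CPM in lung (log2 fold change 2.05 ± 0.14 (SE), edgeR adjusted p = 1.08e-08). The lysyl oxidase gene Loxl2 was at 1456 CPM in muscle and 440.4 CPM in lung (log2 fold change 1.73 ± 0.12 (SE), edgeR adjusted p = 7.56e-08). The single lower gene was Pcolce2, an enhancer of procollagen cleavage, at 269.7 CPM in muscle and 1006 CPM in lung (log2 fold change −1.90 ± 0.10 (SE), edgeR adjusted p = 1.35e-07). Matrix proteases and their inhibitors had 19 members called higher and 19 lower of 59, but 13 higher and 26 lower with library size alone. The gelatinase gene Mmp2 was higher (1.63; 3336 CPM in muscle and 1080.0 CPM in lung), and the stromelysin gene Mmp3 (−2.17; 168 CPM in muscle and 759 CPM in lung) and the inhibitor gene Timp3 (−1.91; 808 CPM in muscle and 3037 CPM in lung) were lower, as log2 fold changes. Serpins, inhibitors of serine proteases, were called lower for 13 and higher for 5 of 26. Elastic fibre genes had 4 members higher and 4 lower of 19, or 3 higher and 10 lower with library size alone. Among them were the fibulin Fbln7 at 4.77 and the latent binding protein Ltbp2 at −3.48 (log2), or −2.72 without lung library 2.

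**Figure D3:**
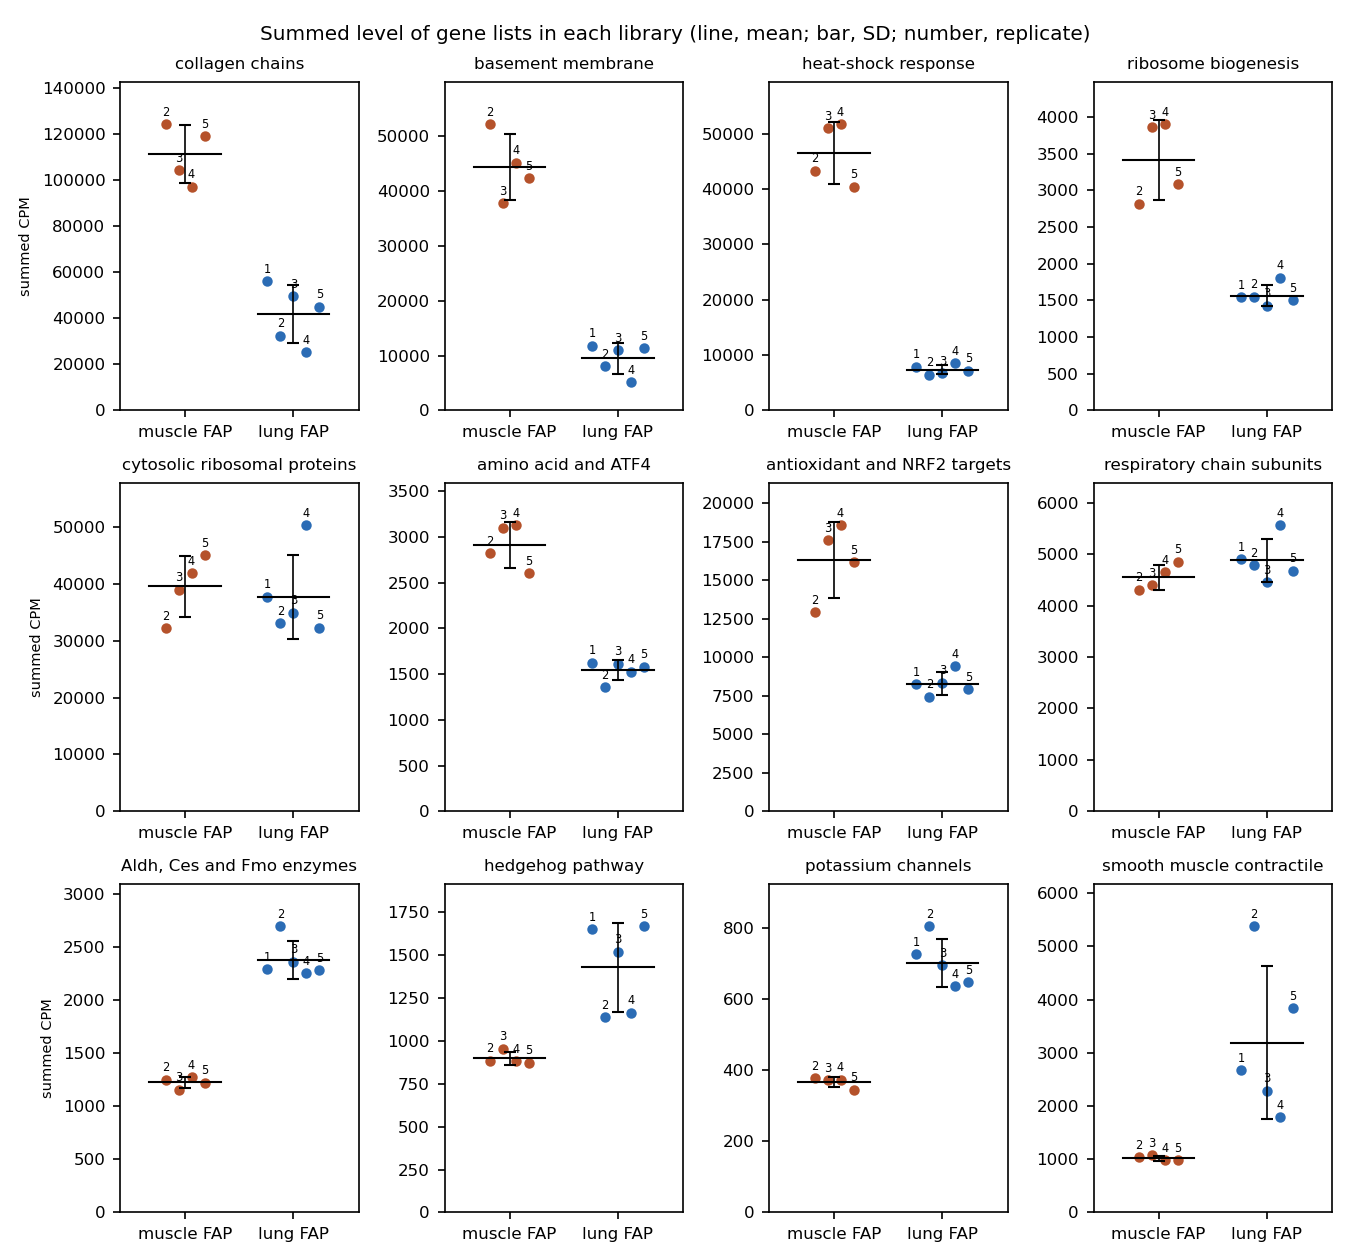
Summed CPM of 12 gene lists in each library on linear axes that start at 0; points are libraries with their replicate number, lines are group means and bars are SDs (n = 4 and 5). Muscle and lung libraries do not overlap for collagen chains, basement membrane, heat-shock or ribosome biogenesis genes, and overlap for ribosomal proteins and respiratory chain subunits.

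Heat-shock genes were higher in muscle FAPs by a wide margin. They encode chaperones that refold damaged proteins, and they are induced together when heat-shock factor binds paired GAA units in their promoters. Of 35 genes, 26 were called higher in muscle FAPs and 4 lower, 17 and 3 by 2-fold. The summed level was 40413 to 51656 CPM in muscle and 6482 to 8572 CPM in lung, a ratio of means of 6.33. The promoters of 4 heat-shock genes are shown because they hold the letters searched; capitals mark each match to GAANNTTC. The sequences are the 250 bases before the RefSeq start, 5′ to 3′ on the gene's strand, from RefSeq on GRCm38.p6. Hspa1b lies at chr17:34959239-34959488, minus strand, Hspd1 at chr1:55087933-55088182, minus strand, Hspb1 at chr5:135887669-135887918, plus strand and Dnaja4 at chr9:54699309-54699558, plus strand.
Hspa1b: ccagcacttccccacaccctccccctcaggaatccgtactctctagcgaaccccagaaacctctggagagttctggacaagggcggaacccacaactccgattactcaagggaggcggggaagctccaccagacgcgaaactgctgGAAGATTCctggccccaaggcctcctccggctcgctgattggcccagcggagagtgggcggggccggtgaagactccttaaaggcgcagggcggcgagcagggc
Hspd1: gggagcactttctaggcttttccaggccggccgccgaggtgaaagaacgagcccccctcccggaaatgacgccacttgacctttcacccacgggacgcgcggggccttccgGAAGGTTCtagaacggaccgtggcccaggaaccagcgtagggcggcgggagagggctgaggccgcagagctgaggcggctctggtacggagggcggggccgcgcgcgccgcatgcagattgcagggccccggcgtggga
Hspb1: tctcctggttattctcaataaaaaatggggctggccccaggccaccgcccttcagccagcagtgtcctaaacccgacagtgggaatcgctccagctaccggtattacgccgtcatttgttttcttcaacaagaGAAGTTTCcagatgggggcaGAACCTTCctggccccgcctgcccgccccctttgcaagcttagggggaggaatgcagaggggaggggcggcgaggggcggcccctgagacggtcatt
Dnaja4: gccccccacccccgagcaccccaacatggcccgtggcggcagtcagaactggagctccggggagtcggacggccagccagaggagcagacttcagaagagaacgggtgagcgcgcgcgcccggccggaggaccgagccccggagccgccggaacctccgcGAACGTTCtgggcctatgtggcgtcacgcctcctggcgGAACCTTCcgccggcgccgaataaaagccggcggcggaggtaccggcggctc

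GAANNTTC reads the same on both strands. It was present in the 250 bases before the start of 10 of the 28 heat-shock genes with a RefSeq promoter (35.7%), against 6.69% of all 32851 promoters. Of these 10 genes, 8 were called higher in muscle FAPs, Hspb6 was called lower and Fkbp4 was not called. The whole list was called higher for 74.3% of its genes, and Hsph1, without a match, was among them. The matches lay 104 bases before the start of Hspa1b and 139 before that of Hspd1. A match of letters is a description and shows no binding.

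The inducible members had the largest differences. Hspa1b, the stress-inducible HSP70, was at 3979, 5114, 4405 and 4169.6 CPM in the muscle libraries and 85.9, 69.3, 104, 78 and 116 CPM in the lung libraries (log2 fold change 5.61 ± 0.16 (SE), edgeR adjusted p = 2.29e-10). Hspa1a, its near-identical neighbour, was at 3269 CPM in muscle and 101 CPM in lung, and how reads were divided between the pair is uncertain. The HSP110 nucleotide exchange factor Hsph1 was at 3099, 3619.6, 3731 and 2785 CPM in the muscle libraries and 95, 79.6, 82.1, 103 and 96.3 CPM in the lung libraries (log2 fold change 5.18 ± 0.12 (SE), edgeR adjusted p = 3.4e-12). The groups were far apart for both genes, and libraries within a group were close. Hsp90aa1, the inducible HSP90, was at 6108, 6747, 7247 and 5254 CPM in the muscle libraries and 622, 575, 531, 726 and 559 CPM in the lung libraries (log2 fold change 3.40 ± 0.13 (SE), edgeR adjusted p = 1.07e-09). The mitochondrial chaperonin gene Hspd1 was at 1067 ± 156 CPM (SD, n = 4) in muscle and 132 ± 17.6 CPM (SD, n = 5) in lung (log2 fold change 3.01 ± 0.14 (SE), edgeR adjusted p = 7.7e-10). The small heat-shock protein gene Hspb1 was at 1681 ± 239.9 CPM (SD, n = 4) in muscle and 193 ± 42.5 CPM (SD, n = 5) in lung (log2 fold change 3.12 ± 0.18 (SE), edgeR adjusted p = 6.26e-08). Libraries of the 2 tissues did not overlap for these genes either. The constitutive HSP70 gene Hspa8 was also higher (log2 fold change 2.32 ± 0.16 (SE), edgeR adjusted p = 3.96e-08). The 4 small or regulatory members Hspb7, Hspb6, Hspb2 and Ahsa2 went the other way, with log2 fold changes of −2.02, −1.65, −1.52 and −0.59. The heat-shock factor gene Hsf1 itself was not called, at 39.6 CPM in muscle and 35.2 CPM in lung (log2 fold change 0.17 ± 0.06 (SE), edgeR adjusted p = 0.137).

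Other folding and degradation machines differed much less. 7 of 13 genes of the CCT chaperonin and prefoldin, which fold actin and tubulin, were called higher and 1 lower, none of them by 2-fold (4 higher without muscle library 4), and the median turned from 0.28 to −0.13 with libraries scaled by size alone. Proteasome subunits had 5 members called higher (8 without lung library 4) and 5 lower of 38, but 1 higher and 28 lower with library size alone. The largest of the differences was the immunoproteasome subunit Psmb10, at 24.6 CPM in muscle and 54.7 CPM in lung (log2 fold change −1.15 ± 0.31 (SE), edgeR adjusted p = 0.000732). Genes of folding in the endoplasmic reticulum and of the unfolded protein response were called higher for 15 and lower for 2 of 32, with a median of 0.35 that was −0.06 with library size alone. Only 2 were higher by 2-fold, Hspa5 and Dnajb9. Hspa5, the main chaperone of the endoplasmic reticulum (BiP), was at 5031, 7251, 6418 and 4713 CPM in the muscle libraries and 2228, 1949, 1618, 3040.0 and 1877 CPM in the lung libraries (log2 fold change 1.45 ± 0.21 (SE), edgeR adjusted p = 1.5e-05).

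The ER stress element, CCAAT followed by 9 bases of any kind and CCACG on either strand, was found in 9 of the 28 genes of this list with a promoter (32.1%) and in 0.113% of all promoters. Of those 9 genes, 3 were called, Calr, Hsp90b1 and Hspa5, all higher in muscle FAPs. With library size alone Calr (adjusted p = 0.0578) and Hsp90b1 (adjusted p = 0.327) were not called by edgeR, and Hsp90b1 was not called without lung libraries 2 and 3 (adjusted p = 0.0528). The Hspa5 promoter (chr2:34771840-34772089, plus strand) is shown with the element in capitals for comparison with the heat-shock promoters.
Hspa5: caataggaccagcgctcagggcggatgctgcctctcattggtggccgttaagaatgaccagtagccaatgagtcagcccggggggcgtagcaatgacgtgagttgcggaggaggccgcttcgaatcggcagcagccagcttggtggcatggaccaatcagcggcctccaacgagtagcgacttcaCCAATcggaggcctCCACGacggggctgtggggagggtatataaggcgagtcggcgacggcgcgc

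Genes that make ribosomes were higher in muscle FAPs while the genes of the ribosome itself were level. Ribosome biogenesis factors process ribosomal RNA in the nucleolus and assemble the subunits. 30 of 34 were called higher and 0 lower, 19 by 2-fold. The count of lower members was also 0 at an unadjusted edgeR p under 0.05 and by DESeq2, and with library size alone 24 were higher and 2 lower. Ddx21, a nucleolar RNA helicase, was at 236, 345, 337 and 248 CPM in the muscle libraries and 85.5, 99.7, 78.1, 125 and 83.8 CPM in the lung libraries (log2 fold change 1.62 ± 0.19 (SE), edgeR adjusted p = 1.14e-06). Gnl3, which encodes nucleostemin, was at 172, 239, 224 and 173 CPM in the muscle libraries and 72.4, 65.2, 57.5, 90.9 and 58.1 CPM in the lung libraries (log2 fold change 1.55 ± 0.17 (SE), edgeR adjusted p = 1.12e-06). The groups did not overlap for either, and muscle libraries 3 and 4 were the highest for both. Rrp12, an export factor of the small subunit, was at 25.2 CPM in muscle and 7.82 CPM in lung (log2 fold change 1.69 ± 0.21 (SE), edgeR adjusted p = 8.07e-07). Of 80 cytosolic ribosomal protein genes, 3 were called higher and 0 lower by edgeR (0 lower at an unadjusted p under 0.05 and 0 by DESeq2), with a median of 0.05 and summed levels of 32235 to 44950.5 CPM in muscle and 32269 to 50221 CPM in lung. Without lung library 4, 15 were higher. With library size alone the median was −0.35, and 43 of them were lower.

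Translation factors followed in smaller steps. Genes with Eif symbols were called higher for 26 and lower for 6 of 56 (17 higher without muscle library 4). They are initiation factors and Argonautes, together with kinases and binding proteins that hold initiation back. Eif4e, which binds the mRNA cap, was at 198 CPM in muscle and 79.8 CPM in lung (log2 fold change 1.31 ± 0.17 (SE), edgeR adjusted p = 4.08e-06). Its scaffold Eif4g3 was at 301 CPM in muscle and 109.8 CPM in lung (log2 fold change 1.45 ± 0.14 (SE), edgeR adjusted p = 7.08e-07). Cytosolic tRNA synthetases were higher for 10 and lower for 3 of 20, 1 of them, the tyrosyl enzyme Yars, by 2-fold (log2 fold change 1.09 ± 0.13 (SE), edgeR adjusted p = 4.94e-06). SR proteins and hnRNPs, which choose splice sites, were higher for 17 and lower for 2 of 33, none by 2-fold, and for 11 without muscle library 4. The medians of these lists, 0.23, 0.27 and 0.29, turned to −0.18, −0.13 and −0.12 with library size alone.

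Genes of amino acid supply and other targets of ATF4, held in a single list, were mostly higher in muscle FAPs. ATF4 is a factor induced when amino acids run short or the endoplasmic reticulum is stressed. With a partner factor it binds the letters TGATGNAA. 18 of 29 were called higher and 4 lower, 12 and 3 by 2-fold, with summed levels of 2603 to 3124 CPM in muscle and 1358 to 1626 CPM in lung. The promoters of Asns (chr6:7693210-7693459, minus strand) and Slc7a11 (chr3:50443614-50443863, minus strand) are shown because both hold the letters close to the start, 23 bases before it in Asns, and 66 and 47 bases before it in Slc7a11, once on each strand; capitals mark the matches.
Asns: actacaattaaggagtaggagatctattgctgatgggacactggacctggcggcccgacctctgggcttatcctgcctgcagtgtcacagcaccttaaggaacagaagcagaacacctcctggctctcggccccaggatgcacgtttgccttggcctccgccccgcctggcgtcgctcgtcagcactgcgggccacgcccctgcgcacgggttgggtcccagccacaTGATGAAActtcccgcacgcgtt
Slc7a11: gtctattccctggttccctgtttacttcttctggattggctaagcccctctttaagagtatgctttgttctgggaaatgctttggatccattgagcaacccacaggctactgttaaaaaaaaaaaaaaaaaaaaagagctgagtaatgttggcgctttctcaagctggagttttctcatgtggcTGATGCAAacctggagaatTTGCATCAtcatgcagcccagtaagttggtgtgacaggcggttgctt

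TGATGNAA, searched on both strands, was found in 3.45% of all promoters, in 6 of 24 genes of the amino acid list with a promoter and in 3 of 12 tRNA synthetase genes (25.0% each). Part of the amino acid list was chosen as ATF4 targets, so its share was set in part by that choice. All 9 genes with the letters were called higher in muscle FAPs, among them Got1, Aars and Tars, with log2 fold changes of 1.87, 0.91 and 0.72. Several of the 9 were smaller, down to 0.33. Library size alone moved the median of all genes from −0.04 to −0.44, and whether the smaller calls hold with it is not reported here. With library size alone the amino acid list had 14 genes called higher and 7 lower, and the tRNA synthetases had 4 higher and 8 lower. The large neutral amino acid transporter Slc7a5 was at 74.4, 115, 113 and 81.7 CPM in the muscle libraries and 10.4, 5.34, 8.22, 5.82 and 9.24 CPM in the lung libraries (log2 fold change 3.62 ± 0.25 (SE), edgeR adjusted p = 9.78e-09). The cystine transporter Slc7a11 was at 23.8, 43.1, 46.2 and 18.9 CPM in the muscle libraries and 3.55, 6.11, 15.9, 2.39 and 5.93 CPM in the lung libraries (log2 fold change 2.28 ± 0.56 (SE), edgeR adjusted p = 0.00111). The asparagine synthetase gene Asns was at 25.1, 35.7, 26.1 and 22.2 CPM in the muscle libraries and 13.8, 7.08, 7.45, 16.2 and 11.1 CPM in the lung libraries (log2 fold change 1.29 ± 0.28 (SE), edgeR adjusted p = 0.000205). For all of these genes the groups did not overlap, and lung library 3 came closest for Slc7a11, whose log2 fold change was 2.87 without it. The stress-induced mTORC1 inhibitor Ddit4 was at 154 CPM in muscle and 36.4 CPM in lung (log2 fold change 2.08 ± 0.28 (SE), edgeR adjusted p = 5.83e-06). Enzymes of the transsulfuration route from methionine to cysteine went the other way: Cth at −1.92 and Cbs at −1.13 (log2), both under 10 CPM in the muscle libraries.

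Redox and detoxification genes divided by type. Antioxidant genes and targets of the factor NRF2 were called higher for 13 and lower for 8 of 34, and 8 against 1 by 2-fold. With library size alone 10 were higher and 18 lower, 6 and 4 by 2-fold. The list mixes NRF2 targets with general antioxidant enzymes such as Sod1 and Sod3, and holds the NRF2 gene Nfe2l2 itself. Hmox1, the heme oxygenase, was at 3087, 4933, 5710.3 and 4378 CPM in the muscle libraries and 91.8, 100.4, 183, 282 and 90.3 CPM in the lung libraries (log2 fold change 4.92 ± 0.38 (SE), edgeR adjusted p = 3.19e-07). Srxn1, which restores peroxiredoxins, was at 556, 882, 917 and 605 CPM in the muscle libraries and 108, 75.4, 119, 149.6 and 90.2 CPM in the lung libraries (log2 fold change 2.77 ± 0.25 (SE), edgeR adjusted p = 5.1e-08). Muscle library 2 was the lowest muscle library for both and still above every lung library. The glutathione synthesis subunit Gclm was at 97.9 CPM in muscle and 20.1 CPM in lung (log2 fold change 2.28 ± 0.18 (SE), edgeR adjusted p = 3.63e-08). The thioredoxin reductase gene Txnrd1 was at 814 CPM in muscle and 177 CPM in lung (log2 fold change 2.20 ± 0.22 (SE), edgeR adjusted p = 1.24e-07). Libraries of the 2 tissues did not overlap for these genes either. The extracellular superoxide dismutase gene Sod3 was the 2-fold lower member, at 353 CPM in muscle and 766 CPM in lung (log2 fold change −1.12 ± 0.18 (SE), edgeR adjusted p = 0.000361). TGACNNNGC, the core letters of the antioxidant response element, were in 6 of 29 promoters of this list (20.7%), in 14% of the promoters of genes tested and in 10.2% of all promoters. Of these 6 genes, Gclm, Txnrd1 and Prdx1 were called higher, G6pdx was called lower, and Nfe2l2 and Sod1 were not called; with library size alone Prdx1 was not called and Nfe2l2 and Sod1 were called lower, and without lung libraries 2 and 3 Prdx1 was not called (edgeR adjusted p = 0.0517).

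Enzymes that act on drugs, aldehydes and lipids were, in contrast, lower in muscle FAPs. Aldehyde dehydrogenases, carboxylesterases and flavin monooxygenases were called lower for 14 and higher for 3 of 29, and their sums, 1157 to 1272 CPM in muscle and 2253 to 2695 CPM in lung, did not overlap. Fmo2, the lung flavin monooxygenase, was at 108, 166, 139.9 and 85.6 CPM in the muscle libraries and 703, 1185, 849, 826 and 845 CPM in the lung libraries (log2 fold change −2.82 ± 0.24 (SE), edgeR adjusted p = 6.67e-06). Glutathione transferases were lower for 10 and higher for 1 of 19. Gsta3, of the alpha class, was at 2.39, 5.26, 4.26 and 5.75 CPM in the muscle libraries and 57, 71, 55.3, 67.3 and 59.7 CPM in the lung libraries (log2 fold change −3.81 ± 0.29 (SE), edgeR adjusted p = 3.1e-08). Cytochrome P450 enzymes were lower for 10 and higher for 3 of 29, with Cyp2e1, an enzyme of ethanol and solvent oxidation, at 1.83 CPM in muscle and 11.4 CPM in lung (log2 fold change −2.64 ± 0.39 (SE), edgeR adjusted p = 9.35e-05). Without lung libraries 2 and 3, the lower counts of these 3 families were 14, 10 and 10. Fmo2 and Gsta3 stayed within a narrow range over the lung libraries (703 to 1185 and 55.3 to 71.0 CPM), while the lung epithelium sum ranged from 112 to 9288 CPM; the part of epithelial cells in these values was not tested.

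Energy metabolism differed by small steps. Nuclear-encoded subunits of the respiratory chain were called lower for 31 and higher for 3 of 81, with a median of −0.22, and 12 of 25 genes of the TCA cycle and 10 of 28 of fatty acid oxidation were lower, against 2 and 1 higher. With library size alone, 74 respiratory, 22 TCA cycle and 22 fatty acid oxidation genes were lower and none of the 3 lists had a member called higher. The mitochondrial ribosome had 23 members lower and 6 higher of 76, with 13 lower without muscle library 3. The mitochondrial isocitrate dehydrogenase gene Idh2 was at 35.9, 36.4, 34.3 and 43.5 CPM in the muscle libraries and 81.3, 82.3, 79.7, 70.5 and 74.7 CPM in the lung libraries (log2 fold change −1.05 ± 0.09 (SE), edgeR adjusted p = 3.97e-07). Only 2 respiratory subunits were lower by 2-fold, Cox4i2 and Cox6b2, and Cox4i2 is itself a pericyte marker. Against this, Mrps6, a protein of the small mitochondrial subunit, was at 38.5 CPM in muscle and 8.11 CPM in lung (log2 fold change 2.25 ± 0.18 (SE), edgeR adjusted p = 4.85e-08). Glycolysis had 11 genes higher and 3 lower of 27, but 4 and 11 with library size alone. Hexokinase 2 (Hk2) was at 483, 616, 678 and 406 CPM in the muscle libraries and 95.3, 114, 129, 175 and 144 CPM in the lung libraries (log2 fold change 2.06 ± 0.23 (SE), edgeR adjusted p = 4.14e-07). Ldhb, the lactate dehydrogenase chain that favours pyruvate, was at 6.76, 7.87, 7.29 and 9.52 CPM in the muscle libraries and 52, 36.4, 56.1, 56.9 and 43.4 CPM in the lung libraries (log2 fold change −2.64 ± 0.16 (SE), edgeR adjusted p = 1.3e-08). Lactate dehydrogenase thus shifted by chain, since Ldha was higher, at 388 CPM in muscle and 263 CPM in lung (log2 fold change 0.56 ± 0.14 (SE), edgeR adjusted p = 0.00172), although it was not called with library size alone.

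**Figure D4:**
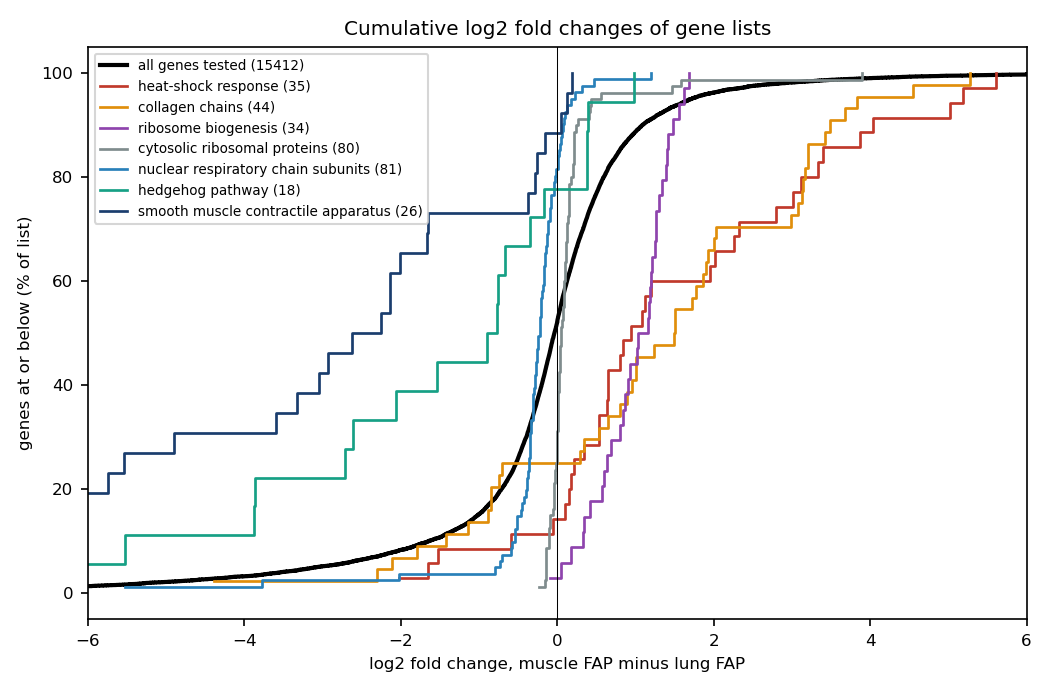
Cumulative log2 fold changes, muscle FAP minus lung FAP, of 7 gene lists and of all 15412 genes tested; a curve to the right of the black curve means higher values in muscle. Ribosomal proteins and respiratory chain subunits rise steeply near 0, whereas the heat-shock and collagen curves are spread to the right (medians 0.94 and 1.5) and the smooth muscle contractile curve to the left (median −2.44).

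Hedgehog signalling genes were lower in muscle FAPs along most of the pathway. Hedgehog ligands from epithelium relieve the block of Ptch1 on Smo and activate Gli factors, whose targets include Gli1, Hhip and the forkhead factors of lung mesenchyme. Of 18 genes, 12 were called lower and 2 higher, 8 of them lower by 2-fold. Gli1, the target used as a reporter of the pathway, was at 26.1, 21.4, 19.6 and 17.9 CPM in the muscle libraries and 116, 119, 164, 132 and 120.1 CPM in the lung libraries (log2 fold change −2.62 ± 0.15 (SE), edgeR adjusted p = 3.3e-08). Foxf1, a factor of lung mesenchyme, was at 3.17, 4.85, 4.72 and 3.68 CPM in the muscle libraries and 37.8, 114, 54.5, 49.1 and 44 CPM in the lung libraries (log2 fold change −3.87 ± 0.31 (SE), edgeR adjusted p = 5.59e-07). All lung libraries lay above all muscle libraries for both. The ligand-binding antagonist Hhip was at 13 CPM in muscle and 54.6 CPM in lung and the co-receptor Cdon at 108 CPM in muscle and 316 CPM in lung, log2 fold changes of −2.06 and −1.54. The receptor Ptch1 was lower by less than 2-fold (log2 fold change −0.76 ± 0.35 (SE), edgeR adjusted p = 0.0312), a call that was lost without muscle library 3 or 5 or lung library 2, 3 or 5 (adjusted p = 0.0568 to 0.0919), and the repressor Gli3 was higher (log2 fold change 0.99 ± 0.16 (SE), edgeR adjusted p = 5.28e-05). Without lung libraries 2 and 3, 10 genes were lower and 1 higher. Of the ligand genes, Shh and Ihh had too few counts to be tested.

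Retinoic acid is made from retinol, which is stored as esters, and is cleared by Cyp26 enzymes. FAPs of the 2 tissues differed in a gene of storage and in a gene of clearance. Of 24 genes, 12 were called lower in muscle and 5 higher. Lrat, which esterifies retinol for storage, had 8 counts in muscle and 2368 in lung (log2 fold change −7.80 ± 0.65 (SE), edgeR adjusted p = 2.27e-06). Cyp26b1, which degrades retinoic acid, was at 11.1, 24.8, 16 and 15.9 CPM in the muscle libraries and 2.18, 1.83, 2.23, 0.498 and 2.71 CPM in the lung libraries (log2 fold change 3.16 ± 0.48 (SE), edgeR adjusted p = 4.24e-05). The storage gene was thus higher in lung FAPs and the clearance gene in muscle FAPs, with no overlap between libraries. Prostaglandin genes also split by step, with 10 lower and 5 higher of 21. The constitutive cyclooxygenase Ptgs1 (log2 fold change −2.07 ± 0.29 (SE), edgeR adjusted p = 1.64e-05) and the prostacyclin synthase Ptgis (log2 fold change −1.93 ± 0.25 (SE), edgeR adjusted p = 8.54e-06) were lower, and Ptgir, the prostacyclin receptor, was at 43.9 CPM in muscle and 10.3 CPM in lung (log2 fold change 2.08 ± 0.15 (SE), edgeR adjusted p = 1.18e-07).

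Genes of the BMP family and of GDNF signalling differed between the tissues. Of 63 genes of the BMP, activin and TGF-beta system, 30 were called higher and 11 lower, against 19 and 21 with library size alone. The ligand Bmp2 was at 158 CPM in muscle and 19 CPM in lung (log2 fold change 3.05 ± 0.29 (SE), edgeR adjusted p = 2.08e-07). Its extracellular modulator Bmper was at 409 CPM in muscle and 23.8 CPM in lung (log2 fold change 4.10 ± 0.24 (SE), edgeR adjusted p = 1.88e-09). WNT genes were called about equally in each direction, 18 higher and 19 lower of 52. The GDNF receptor pair Ret and Gfra1, known from enteric and motor neurons, was among the largest differences: Ret was at 319, 177, 191 and 206 CPM in the muscle libraries and 2.75, 0.685, 6.94, 1.59 and 3.37 CPM in the lung libraries (log2 fold change 6.18 ± 0.57 (SE), edgeR adjusted p = 1.11e-06). Gfra1 was at 158, 122, 146 and 112 CPM in the muscle libraries and 2.61, 1.68, 1.67, 2.06 and 1.5 CPM in the lung libraries (log2 fold change 6.14 ± 0.18 (SE), edgeR adjusted p = 4.8e-12). Neither gene had overlapping groups, and the highest lung library for Ret was number 3.

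Interleukins and their receptors were called higher for 23 and lower for 15 of 60 genes, and for 16 and 19 with library size alone. Il4ra, the receptor through which IL-4 and IL-13 act on FAPs, was at 435, 418, 511 and 409 CPM in the muscle libraries and 104, 117, 67.2, 88.6 and 63.8 CPM in the lung libraries (log2 fold change 2.33 ± 0.19 (SE), edgeR adjusted p = 5.56e-08). Lifr, the receptor of leukemia inhibitory factor, was at 189 ± 26.5 CPM (SD, n = 4) in muscle and 36.5 ± 6.01 CPM (SD, n = 5) in lung (log2 fold change 2.37 ± 0.14 (SE), edgeR adjusted p = 4.55e-09). Among NF-kappaB genes, 14 of 30 were higher and 5 lower. The precursor subunit Nfkb1 was at 711, 1038, 999 and 614 CPM in the muscle libraries and 109.5, 145, 133, 172 and 126 CPM in the lung libraries (log2 fold change 2.62 ± 0.21 (SE), edgeR adjusted p = 1.37e-08), while the inhibitor Nfkbia was lower by less than 2-fold with overlapping libraries (log2 fold change −0.63 ± 0.18 (SE), edgeR adjusted p = 0.00632). Interferon response genes were called higher for 7 and lower for 6 of 53, but muscle library 5 stood apart with a summed level of 4451 CPM against 2307 to 2431 CPM in the other muscle libraries and 2101 to 3105 CPM in lung. Without it 5 were higher and 23 lower, and with library size alone 3 and 13. Complement genes leaned to lung, with 15 lower and 8 higher of 37.

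Glucocorticoid targets were mostly higher in muscle FAPs. 11 of 18 glucocorticoid targets and metallothioneins were called higher and 0 lower by edgeR (0 lower at an unadjusted p under 0.05 and 0 by DESeq2), 3 by 2-fold; with library size alone 5 were higher and 3 lower. Sgk1, a kinase induced by steroids and serum, was at 524, 601, 672 and 553 CPM in the muscle libraries and 129, 168, 115, 108 and 119.6 CPM in the lung libraries (log2 fold change 2.20 ± 0.14 (SE), edgeR adjusted p = 6.49e-09). Of 23 clock genes, 9 were higher, 2 lower and 12 not called, or 7 higher and 5 lower with library size alone. The repressor Cry1 was at 37.3, 58.4, 56.5 and 42.1 CPM in the muscle libraries and 9.85, 10.7, 7.33, 10.2 and 10.3 CPM in the lung libraries (log2 fold change 2.33 ± 0.19 (SE), edgeR adjusted p = 1.58e-08). The activator Rora was at 61.1 CPM in muscle and 19.4 CPM in lung (log2 fold change 1.66 ± 0.13 (SE), edgeR adjusted p = 3.41e-07). The antiphase pair Arntl and Dbp gave 1.01 (55.9 CPM in muscle and 27.7 CPM in lung) and −0.52 (15.5 CPM in muscle and 22.2 CPM in lung) as log2 fold changes, of which Arntl was called and Dbp was not; the hour of collection is stated nowhere in the labels, and its part in these values was not tested.

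**Figure D5:**
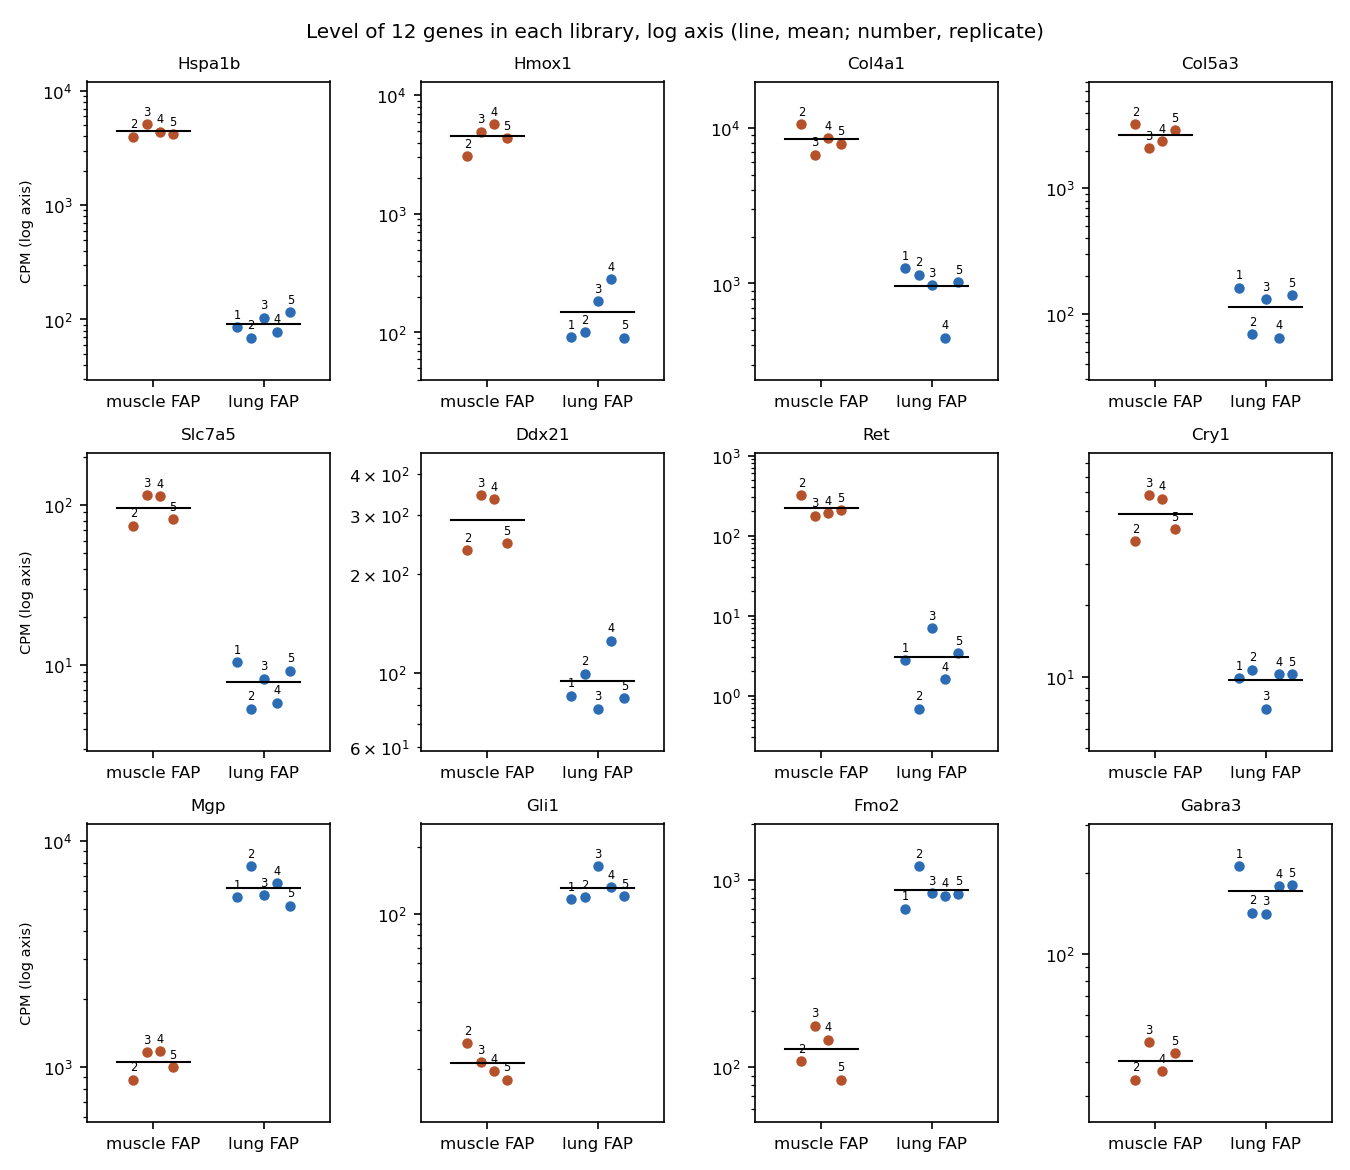
CPM of 12 genes in each library on log axes; points are libraries with their replicate number and lines are group means. No gene shown has overlapping tissues: 8 are higher in muscle FAPs (log2 fold changes from 1.62 for Ddx21 to 6.18 for Ret) and Mgp, Gli1, Fmo2 and Gabra3 are higher in lung FAPs.

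Guidance and excitability families held many members that were strongly lower in muscle FAPs. Semaphorins steer axons, vessels and migrating cells through plexins and neuropilins. 13 of 31 of them were called lower and 5 higher. Sema3d was at 22.3, 13.9, 18.1 and 10.2 CPM in the muscle libraries and 189, 168, 176, 215 and 196 CPM in the lung libraries (log2 fold change −3.55 ± 0.25 (SE), edgeR adjusted p = 7.59e-09). Sema6b was at 38.3, 42.7, 53.7 and 34.1 CPM in the muscle libraries and 5.59, 5.91, 5.81, 5.55 and 6.56 CPM in the lung libraries (log2 fold change 2.84 ± 0.15 (SE), edgeR adjusted p = 2.66e-09). The 2 genes thus went in opposite directions with no overlap. Ephrins and Eph receptors, which act between touching cells, were lower for 10 and higher for 2 of 19. The netrin receptor Unc5c was at 0.379, 0.385, 0.173 and 0.419 CPM in the muscle libraries and 18.3, 40.1, 21.2, 21.3 and 30.1 CPM in the lung libraries (log2 fold change −6.26 ± 0.32 (SE), edgeR adjusted p = 1.01e-09), while slits, robos and netrin receptors as a whole had 8 higher and 8 lower of 28 (6 and 11 with library size alone).

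Single ion channel genes better known from neurons differed strongly. At adjusted p under 0.05 their lists were called for shares near the 48.2% of all genes, but at 2-fold the shares were larger. Ionotropic receptors, potassium channels and the other channels were 2-fold lower for 27.5%, 29.5% and 23.9%, against 12.3% of all genes. They were 2-fold higher for 12.5%, 21.3% and 13.4%, against 9.12%. Of 40 ionotropic receptor genes, 13 were called lower in muscle and 6 higher (3 without muscle library 3 or without 4). The AMPA receptor subunit Gria1 was at 0.67, 0.385, 0.806 and 0.629 CPM in the muscle libraries and 32.1, 82.5, 36.4, 25.9 and 50.4 CPM in the lung libraries (log2 fold change −6.18 ± 0.36 (SE), edgeR adjusted p = 4.37e-08). The GABA-A receptor subunit Gabra3 was at 34.5, 47.4, 37.1 and 43.3 CPM in the muscle libraries and 211, 142, 141, 179 and 180.2 CPM in the lung libraries (log2 fold change −2.07 ± 0.15 (SE), edgeR adjusted p = 3.53e-08). Potassium channel genes were lower for 19 and higher for 14 of 61, 18 and 13 by 2-fold; without lung libraries 2 and 3 they were 16 lower and 15 higher, and the median moved from −0.32 to 0.06. Calcium, sodium, chloride and TRP channels were lower for 19 and higher for 14 of 67. The ATP-sensitive channel is built from a pore, Kcnj8, and the sulfonylurea receptor Abcc9. Abcc9 was at 20.4, 20.1, 16.7 and 16.9 CPM in the muscle libraries and 269.5, 281, 271, 251 and 255 CPM in the lung libraries (log2 fold change −3.84 ± 0.08 (SE), edgeR adjusted p = 4.8e-12). Kcnj8 was at 2.27, 1.21, 1.04 and 2.21 CPM in the muscle libraries and 67.4, 77, 69.9, 73.5 and 63 CPM in the lung libraries (log2 fold change −5.38 ± 0.29 (SE), edgeR adjusted p = 2.36e-09). Both genes are also known from pericytes, and Kcnj8 is itself among the pericyte and smooth muscle markers. Their lung levels stayed between 251 and 281 CPM for Abcc9 and between 63.0 and 77.0 CPM for Kcnj8. The sum of those markers, which also holds smooth muscle genes such as Acta2 and Myh11, ranged from 370 to 2208 CPM. The part of pericytes was not tested. The acid-sensitive channel Kcnk3, at 0.0291, 0.0592, 0 and 0.0299 CPM in the muscle libraries and 4.7, 30.7, 5.9, 1.59 and 15 CPM in the lung libraries (log2 fold change −8.47 ± 0.76 (SE), edgeR adjusted p = 2.28e-05), was highest in lung library 2, without which its log2 fold change was −7.68.

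G protein-coupled receptors, the largest receptor family, were called lower for 48 and higher for 32 of 155 genes, 40 and 26 by 2-fold; without lung libraries 2 and 3 the 2-fold counts were 36 and 31. The ADP receptor P2ry1 was at 97, 68.8, 88.1 and 75.2 CPM in the muscle libraries and 2.66, 3.48, 2.35, 4.75 and 2.95 CPM in the lung libraries (log2 fold change 4.67 ± 0.20 (SE), edgeR adjusted p = 2.33e-10). The endothelin receptors were both lower: Ednra was at 8.18, 9.02, 9.96 and 7.96 CPM in the muscle libraries and 78.8, 126, 77.6, 58.3 and 84.8 CPM in the lung libraries (log2 fold change −3.28 ± 0.19 (SE), edgeR adjusted p = 1.99e-08). Ednrb was at 0.117, 0.473, 0.461 and 0.539 CPM in the muscle libraries and 4.3, 39.5, 3.49, 13.7 and 12.8 CPM in the lung libraries (log2 fold change −5.20 ± 0.76 (SE), edgeR adjusted p = 8.71e-05), or −4.40 without lung library 2. Lung library 2 was the highest for both endothelin receptors. The glutamate receptor gene Grm8 had 1752 counts in muscle and 0 in lung, at least 715-fold higher over the group floor. Solute carriers, the membrane transporters, were balanced, with 68 higher and 65 lower of 272, but 32 and 113 with library size alone.

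Contractile genes were lower in muscle FAPs. The smooth muscle contractile apparatus had 19 of 26 genes called lower and 0 higher by edgeR (0 higher at an unadjusted p under 0.05 and 0 by DESeq2), all 19 by 2-fold, with a median of −2.44. The smooth muscle myosin Myh11 was at 3.52, 4.67, 4 and 4.28 CPM in the muscle libraries and 153, 436, 115, 55 and 348 CPM in the lung libraries (log2 fold change −5.75 ± 0.55 (SE), edgeR adjusted p = 1.2e-05). The smooth muscle actin Acta2 was at 5.1, 6.48, 5.41 and 4.31 CPM in the muscle libraries and 332, 895, 268, 154 and 582 CPM in the lung libraries (log2 fold change −6.39 ± 0.46 (SE), edgeR adjusted p = 5.22e-07). Muscle libraries were tight and low, and the lung libraries spread over several-fold with number 2 highest and number 4 lowest. This order was also that of the pericyte and smooth muscle markers, which include both genes; the part of such cells was not tested. Without lung libraries 2 and 3 the count was 19 of 26 and the median −2.15. The nitric oxide receptor subunits Gucy1a3 and Gucy1b3, which raise cGMP to relax smooth muscle, followed library 2 more closely: Gucy1b3 was at 8.42, 9.38, 9.16 and 8.38 CPM in the muscle libraries and 26.2, 329, 21, 25.1 and 64.5 CPM in the lung libraries (log2 fold change −3.40 ± 0.74 (SE), edgeR adjusted p = 0.00607) and its log2 fold change was −1.94 without that library.

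The medians of the junction families depended on those libraries too. Cadherins were called lower for 8 and higher for 1 of 20 genes, with a median of −1.26 that was −0.37 without lung libraries 2 and 3. Claudins and other junction genes were lower for 16 and higher for 4 of 38, with a median of −1.07 that was −0.19 without them. Cldn5, the endothelial claudin, was at 0.0291, 0.0296, 0 and 0 CPM in the muscle libraries and 1.92, 112, 3.52, 35.7 and 5.9 CPM in the lung libraries and was highest in lung library 2, as was the endothelial sum. Cdh11, the cadherin of mesenchyme, varied little within lung and was at 45, 63.6, 59.5 and 39.2 CPM in the muscle libraries and 243, 259, 171, 192 and 210.3 CPM in the lung libraries (log2 fold change −2.05 ± 0.20 (SE), edgeR adjusted p = 8.45e-07). Gja1, the connexin 43 gene, was higher in muscle, at 874, 1049, 1074 and 789.6 CPM in the muscle libraries and 299, 218, 259, 571 and 334 CPM in the lung libraries (log2 fold change 1.49 ± 0.26 (SE), edgeR adjusted p = 0.000152). Junction genes known from stroma thus differed in both directions.

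Patterning factors separated the tissues, with more genes called higher than lower in muscle FAPs. Homeobox factors outside the Hox clusters were called higher for 29 and lower for 7 of 79, and Hox genes for 21 and 9 of 37. En1, a factor of trunk and limb patterning, was at 11, 12.9, 12.7 and 10.5 CPM in the muscle libraries and 0, 0.0285, 0, 0.0332 and 0 CPM in the lung libraries, 1608 counts against 2, a ratio of 984 with a 95% exact counting interval of 272.0 to 8133. In the GATA, RUNX, KLF, EGR and ETS families, 24 of 51 were higher and 10 lower (14 and 14 with library size alone). Runx1 was at 51.9, 67.7, 67.1 and 37.4 CPM in the muscle libraries and 9.34, 12.8, 15.3, 7.81 and 8.19 CPM in the lung libraries (log2 fold change 2.39 ± 0.28 (SE), edgeR adjusted p = 1.1e-06). Gata6, a factor of lung and visceral mesoderm, was at 6.44, 13.5, 4.29 and 7.99 CPM in the muscle libraries and 69.3, 38, 50.6, 37.5 and 52.6 CPM in the lung libraries (log2 fold change −2.62 ± 0.38 (SE), edgeR adjusted p = 4.42e-06). Neither factor had overlapping libraries. Tbx4 and Tbx5, T-box factors of lung mesenchyme and limb, were lower in muscle, with log2 fold changes of −2.66 and −1.95 (edgeR). The helix-loop-helix factor Tcf21, a marker of lung lipofibroblasts, was at 0.0874, 1.51, 0.345 and 1.11 CPM in the muscle libraries and 96.5, 122, 102, 124 and 122 CPM in the lung libraries (log2 fold change −7.21 ± 0.79 (SE), edgeR adjusted p = 8.84e-08).

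Immediate-early genes, which respond within minutes to serum or handling, were called higher in muscle FAPs for 22 and lower for 3 of 38. The family did not move as a block. Egr1 was at 5846, 6349, 6206 and 4782 CPM in the muscle libraries and 2842, 808, 2507, 998 and 2141 CPM in the lung libraries (log2 fold change 1.64 ± 0.38 (SE), edgeR adjusted p = 0.00547). Arc was at 100.3, 113, 110.1 and 88.8 CPM in the muscle libraries and 10.4, 4.71, 21.4, 6.65 and 7.52 CPM in the lung libraries (log2 fold change 3.35 ± 0.38 (SE), edgeR adjusted p = 5.36e-06). Fos was not called, at 2533, 2845, 2708 and 2094 CPM in the muscle libraries and 4017, 1130.2, 2743, 1496 and 2844 CPM in the lung libraries (log2 fold change 0.06 ± 0.35 (SE), edgeR adjusted p = 0.932). Its relative Fosb was lower, at 434, 740.4, 592 and 574 CPM in the muscle libraries and 2817, 1194, 2466, 1354 and 2921 CPM in the lung libraries (log2 fold change −1.88 ± 0.32 (SE), edgeR adjusted p = 0.000297). Lung libraries 2 and 4 were the lowest of their group for Egr1, Fos and Fosb; without lung libraries 2, 3 and 4, 19 members were higher and 6 lower.

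Imprinted genes and cell cycle inhibitors were mostly higher in muscle FAPs. The imprinted growth network, genes expressed from a single parental copy, had 19 members called higher and 2 lower of 29. Plagl1, a zinc finger factor that regulates the network, was at 408, 469, 454 and 332 CPM in the muscle libraries and 28.5, 34, 35.3, 33.9 and 49.2 CPM in the lung libraries (log2 fold change 3.52 ± 0.17 (SE), edgeR adjusted p = 5.15e-10). Peg10 was at 113, 165, 159 and 115 CPM in the muscle libraries and 8.16, 8.45, 13.4, 5.42 and 13.9 CPM in the lung libraries (log2 fold change 3.80 ± 0.29 (SE), edgeR adjusted p = 3.65e-08). Cdkn1c, the imprinted cyclin-dependent kinase inhibitor, was at 186, 178, 254 and 205 CPM in the muscle libraries and 44.1, 55.7, 50.2, 60.3 and 53.4 CPM in the lung libraries (log2 fold change 1.97 ± 0.14 (SE), edgeR adjusted p = 6.28e-08). All 3 genes were above every lung library in each muscle library. CDK inhibitors and p53 targets were higher for 19 and lower for 6 of 35 (9 and 12 with library size alone), led by the DNA damage gene Gadd45a at 90.3 CPM in muscle and 16 CPM in lung (log2 fold change 2.49 ± 0.10 (SE), edgeR adjusted p = 4.41e-09). Among genes of cell division, those of DNA replication were higher for 7 and lower for 11 of 47, and mitosis genes for 4 and 10 of 41, with mitosis sums of 109 to 119 CPM in muscle and 118 to 135 CPM in lung. These counts were unstable: without muscle library 4, 6 replication and 6 mitosis genes were lower.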

How the data were processed

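The deposited table holds raw read counts per gene, whole numbers that the authors did not normalize. Per the submitters' processing notes, Bowtie2 2.1.0.0, HTSeq and edgeR were named with the mm10 build; how they were used, and whether strand was counted, is not given in the sources used here, so overlapping and antisense genes and near-identical copies cannot be told apart. Per the labels' protocols, total RNA was extracted and used at an integrity score of 7 or more. No column belonged to another series.

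All 13 libraries entered 1 edgeR fit (edgeR 4.0.16 in R 4.3.3), with TMM factors, filterByExpr (15412 of 23418 genes kept) and the robust quasi-likelihood test of muscle against lung FAPs; standard errors come from log2 CPM with a prior count of 2. Promoters were read from RefSeq tables on GRCm38.p6. Genes were grouped into 103 lists, 93 of functions or families and 10 of cell types. The parts compared and the lists were chosen with earlier results of these data known, and no list was given a test of its own. Named genes are the 10 with the largest change in each direction at 20 CPM or more, and up to 3 called genes per list and direction at 10 CPM or more, together with the 10 most abundant genes of each tissue and the FAP markers; a few genes under this rule are not reported here. These further genes were named after their values were seen: Arntl, Asns, Calr, Cbs, Cdon, Cth, Dbp, Dnaja4, Ednra, Egr1, Fkbp4, Fmod, Fos, Got1, Hhip, Hsf1, Hsp90b1, Hspb1, Hspb2, Hspb6, Hspb7, Hspd1, Hspg2, Il4ra, Lama2, Ldha, Mkx, Nfe2l2, Prdx1, Ptch1, Scx, Sod1, Tars, Timp3 and Txnrd1. No libraries of a group agreed within sampling noise (chi-square per gene 29.5 to 164). Counting intervals and floors cover counting error only. Procedures were tested on simulated counts of 15412 genes, of which 50 were changed by 1.5-fold, 50 by 2-fold and 100 by 4-fold. There 3.68% of calls were false. Far more genes were called in the real data, so this share does not carry over to them. Alternatives were DESeq2 1.42.0, limma 3.58.1 with voom, other scalings and filters, a test against 2-fold, a replicate block and leaving out libraries.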

Additional observations from a re-analysis of the deposited data

Results flagged for a closer look

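In each group the highest and the lowest library was compared with its nearest neighbour, for the summed CPM of the lists and the CPM of the genes described. A value was singled out when its gap to the neighbour, divided by the range of the group, passed Dixon's 95% limit for its group size. Of 496 groups tested 50 passed, where chance alone gives about 1 in 20. Lung library 2 held 14 of these values, lung library 3 held 11 and lung library 4 held 7.

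Lung library 3 was far above the other lung libraries in lung epithelium markers (9288 CPM summed), blood cell markers (714 CPM) and cytochrome P450 enzymes (993 CPM). The airway and alveolar genes carried the same mark: Scgb1a1 at 5127 CPM, Sftpc at 2181 CPM, Cbr2 at 747 CPM, Scgb3a2 at 244 CPM, Scgb3a1 at 122 CPM and Bpifa1 at 118 CPM. Slc7a11 was also highest there (15.9 CPM), and Cry1 lowest (7.33 CPM).

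Lung library 2 was highest for Gucy1a3 at 339 CPM, Gucy1b3 at 329 CPM, the pericyte marker Cox4i2 at 78.5 CPM and Ednrb at 39.5 CPM. It also stood apart in Foxf1 (114 CPM), Hhip (82.5 CPM), Lifr (47.2 CPM), Ptgs1 (30.5 CPM), Hspb2 (13.4 CPM) and the tendon factor gene Mkx (2.37 CPM). Among list sums, it stood apart in phosphodiesterases and adenylate cyclases (1970 CPM), aldehyde dehydrogenases, carboxylesterases and flavin monooxygenases (2695 CPM), cadherins (499 CPM) and the BMP, activin and TGF-beta system (6979 CPM).

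Lung library 4 stood apart in the summed NF-kappaB genes (11868 CPM), chemokines (6920.3 CPM), CCT chaperonin and prefoldin (1576 CPM), Schwann cell markers (1199 CPM) and protocadherins (354 CPM), and in Txnrd1 (232 CPM) and Fkbp4 (111 CPM). Lung library 1 stood apart in CDK inhibitors and p53 targets (2948 CPM summed), Fabp5 (60.3 CPM) and Kera (0.63 CPM).

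Muscle library 5 was far above the other muscle libraries in interferon response genes (4451 CPM summed) and in Ly6a (1013 CPM) and Psmb10 (42.2 CPM), both known to respond to interferon. It also stood apart in channels of the calcium, sodium, chloride and TRP classes (1601 CPM summed). Muscle library 3 stood apart in the TCA cycle (1657 CPM summed), the hedgehog pathway (953 CPM) and Nfkbia (647 CPM). Muscle library 2 stood apart in Loxl2 (1717 CPM), Lama5 (4.25 CPM) and Scgb3a1 (0.117 CPM). Muscle library 4 stood apart in Sftpc (0.662 CPM), Unc5c (0.173 CPM), Bpifa1 and Scgb3a2 (0.0288 CPM each) and Fgfr4 (0 CPM). A count of 3 is 0.0874 CPM in muscle library 2, just under its Scgb3a1 value. In muscle library 4 it is 0.0864 CPM, and the Bpifa1, Scgb3a2 and Fgfr4 values there lay below that.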

How the results depend on the processing

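Libraries scaled by size alone gave 1730 genes higher and 7455 lower in muscle FAPs, 834 and 3096 of them by 2-fold. A filter of at least 5 CPM in 4 libraries left 956 genes 2-fold higher and 1056 lower. A test against a 2-fold change (glmTreat) called 1934 genes, 732 higher and 1202 lower. Upper-quartile scaling called 3135 higher and 4371 lower. DESeq2 called 7772 genes and limma-voom 8096. Leaving out 1 library at a time gave 6355 to 7355 genes called, 3047 to 3635 higher and 3308 to 3831 lower, and 1263 to 1485 higher and 1759 to 1918 lower by 2-fold.

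The labels do not say whether same-numbered muscle and lung libraries share an animal or a preparation. Their deviations from the group means correlated by 0.017, 0.037, 0.061 and 0.05. Other pairs of a muscle and a lung library correlated by −0.074 to 0.077. Such small values cannot show that the libraries were unpaired. With the replicate block, 6287 genes were called, against 6801 in the same 9 libraries without it. Of 165 named genes, Ptch1, Scx and Sftpc lost their call in those 9 libraries already without the block, and Gucy1b3, Hspb6 and Prdx1 lost it with the block only.

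With library size alone, Fkbp4 (−0.30), Hsf1 (−0.24), Sod1 (−0.37), Nfe2l2 (−0.50), Cd34 (−0.41) and Ly6a (−0.54), which were not called in the main test, were called lower, Prdx1 turned to −0.08 without a call, and 61 of 83 list medians moved by more than the spread between libraries. With the voom test 4 named genes lost their call, all of them lung epithelium products. Leaving out lung libraries 2, 3 and 4 together, an alternative chosen after seeing the data, called 6894 genes and ended the call of none of the named genes, and 13 list medians moved. At these depths a count of 3 over the group is 0.022 CPM in muscle and 0.018 CPM in lung. In the simulated data far fewer genes differed than were called here. There 28% of genes changed by 1.5-fold, 66% of those changed by 2-fold and 84% of those changed by 4-fold were recovered.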

Other observations

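Lipid handling, integrins, growth factor receptors and chemokines also separated the tissues, by member rather than as families. Of 31 genes of fatty acid synthesis and lipid storage, 9 were called higher in muscle FAPs and 14 lower by edgeR. The lipid droplet coat gene Plin2 was at 180.0, 165, 221 and 209.5 CPM in the muscle libraries and 50.9, 49.9, 46.2, 61.8 and 58.9 CPM in the lung libraries (log2 fold change 1.86 ± 0.12 (SE), edgeR adjusted p = 1.25e-08). The fatty acid carrier Fabp5 was at 2.18, 3.58, 2.04 and 2.75 CPM in the muscle libraries and 60.3, 25.8, 26.9, 32.9 and 35.3 CPM in the lung libraries (log2 fold change −3.78 ± 0.28 (SE), edgeR adjusted p = 1.4e-07). Neither gene had overlapping tissues. Of 27 integrin genes, 8 were higher and 8 lower, and all 8 lower members passed 2-fold. Itga11, a collagen receptor of fibroblasts, was at 309.8, 257, 282 and 342 CPM in the muscle libraries and 74.2, 27, 86.8, 33.7 and 74.7 CPM in the lung libraries (log2 fold change 2.33 ± 0.35 (SE), edgeR adjusted p = 2.92e-05). Itga8, which binds nephronectin, was at 35.2, 28.4, 31 and 27.9 CPM in the muscle libraries and 151, 371, 118, 104 and 201 CPM in the lung libraries (log2 fold change −2.63 ± 0.34 (SE), edgeR adjusted p = 3.03e-05). Both nephronectin and its receptor chain were thus higher in the lung libraries. Within lung both genes were highest in library 2 and lowest in library 4, as were the pericyte and smooth muscle markers. The part of such cells in these values was not tested.

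Of 27 FGF ligands and receptors, 9 were called higher in muscle FAPs and 8 lower (8 and 12 with library size alone). Fgfr4 was at 0.17 CPM in muscle and 11.8 CPM in lung and Fgfr3 at 4.4 CPM in muscle and 88.3 CPM in lung (log2 fold changes −6.10 and −4.33), while Spred1 and Spry2, 2 feedback inhibitors of the pathway, had log2 fold changes of 2.04 and 1.86; edgeR called all 4. Chemokines and their receptors were called higher for 12 and lower for 14 of 42. Cxcl14 was at 2179, 1280.3, 1704 and 1933 CPM in the muscle libraries and 105, 192, 114, 51.5 and 96.3 CPM in the lung libraries (log2 fold change 3.99 ± 0.34 (SE), edgeR adjusted p = 1.61e-07). Cxcl13, a chemokine that draws B cells, was at 14.7, 5.29, 9.62 and 6.38 CPM in the muscle libraries and 55.6, 28, 29.2, 65.3 and 47.8 CPM in the lung libraries (log2 fold change −2.33 ± 0.41 (SE), edgeR adjusted p = 0.000102). Genes of axonemal dyneins and ciliary transport were called lower for 15 and higher for 2 of 38, 1 and 1 by 2-fold, with a median of −0.35 against −0.04 for all genes.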
